A study of Mus musculus with 12 samples.

Results

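The glycolysis and hypoxia response genes are 33 genes chosen by name: the enzymes of glycolysis from hexokinase to lactate dehydrogenase with their isoenzymes, glucose and lactate transporters, and targets of the hypoxia-inducible factor (HIF) with the HIF subunit gene Hif1a. All 33 names were found, among 55487 genes in the count table. They were measured by bulk RNA-seq in mouse cells labelled as Ly6C+ monocytes, the classical monocytes of blood and marrow, in 4 groups of 3 libraries named BM, KO, Mixed and WT. BM cells came from bone marrow of genotype WT, with no age in the labels. KO cells came from fetal liver of genotype KO at E13.5 (embryonic day). WT cells came from fetal liver of genotype WT, WT 1 at E13.5 and WT 2 and WT 3 at E15.5. Mixed cells came from fetal liver at E15.5 and also carry the genotype label WT. The labels explain neither the name Mixed nor the allele behind the genotype KO; the series title names cMaf and Zeb2. Whether the replicates of a group are separate animals is also unstated, so that p-values measure the spread among these libraries, which may be technical.

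Glycolysis splits glucose into pyruvate and yields a little ATP without oxygen, and lactate dehydrogenase turns pyruvate into lactate so that the pathway can go on. Several steps have isoenzymes made from different genes, which differ in affinity, in regulation and in the cells that make them. When oxygen is low, the prolyl hydroxylases encoded by Egln genes stop marking the HIF alpha subunit for destruction, and HIF then switches on most genes of glycolysis together with genes that limit mitochondrial respiration. Myeloid cells are known to rely on glycolysis, and Hif1a is needed for their function in inflamed tissue.

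Total counts were 17384911 to 24473471 per library. The libraries labelled KO had Zeb2 at 20.1 to 23.8 CPM (reads of a gene per 1e+06 reads, on TMM-scaled totals), below the 141 to 165 CPM of WT, while Maf was 7.94 to 12.7 CPM in KO and 12.1 to 14.9 CPM in WT. The defining monocyte markers were present in every library, among them Ccr2, at 2123 to 2240 CPM in BM and 640 to 982 CPM in the fetal liver libraries. Summed over 11 classical monocyte markers, the level was 35180 to 35860 CPM in BM, 11010 to 12490 in WT, 14610 to 14710 in Mixed and 7923 to 8929 in KO. The sum is led by Lyz2 and F13a1, and single markers went both ways: 9 of the 11 were higher and 2 lower in BM than in WT, and 5 higher and 6 lower in KO, where Ly6c2 was 1372 to 1684 CPM against 490 to 549 in WT. Markers of other cells were also present. Summed over 12 neutrophil markers, the level was 1008 to 1209 CPM in BM, 4560 to 6478 in WT, 3699 to 4008 in Mixed and 11160 to 14060 in KO, and 10 markers of conventional dendritic cells summed to 307 to 326 CPM in WT and 961 to 1050 in KO. The dendritic cell sum, 632.5 to 648.5 CPM in BM and 353 to 375 in Mixed, is led by Irf8. That gene had 282 to 298 CPM in WT and 728 to 823 in KO. Of the 10 dendritic cell markers, 8 were higher and 1 lower in KO than in WT. The neutrophil sum is led by S100a8 and S100a9. Of the 12, 7 were higher and none lower in KO than in WT, while the granule gene Ngp had 101 to 478 CPM in KO and 245 to 705 in WT. Summed over 11 erythroid markers, the level was 5.61 to 22.97 CPM in BM and 634 to 1915 in the 9 fetal liver libraries. None of the erythroid markers passed the test between fetal liver groups and 11 of 11 were lower in BM than in WT. Summed over 10 proliferation genes, the level was 2830 to 2943 CPM in BM and 3691 to 3947 in the fetal liver libraries, and 8 of the 10 were lower in BM than in WT. Of 8 hepatocyte markers, 7 were lower and 1 higher in BM than in WT, with Alb, Apoa1 and Serpina1a at 0 in BM. Their sum, 513 to 558 CPM in BM and 161 to 378 in the fetal liver libraries, is nearly all Trf, the transferrin gene, at 512 to 558 CPM in BM. Each of these levels moves with a group, and their part in the results that follow was not tested.

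Of the 33 genes, 31 were expressed highly enough to be tested. Eno2, the neuronal enolase, had 1 read in KO 1, 3 reads in Mixed 1 and none in the other libraries. Vegfa, the endothelial growth factor and a textbook HIF target, had 1 to 7 reads per library, or 0.0550 to 0.337 CPM. Neither could be compared between groups at this depth, where 3 counts correspond to 0.127 to 0.167 CPM.

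Per length, in the deposited TPM values, the genes spanned a wide range of levels. In WT the highest were Aldoa at 2564 ± 77.8 TPM (SD, n = 3), Pkm at 1801 ± 67.7, Eno1 at 1694 ± 34.4 and Ldha at 1655 ± 11.5. Aldoa stood clear above Pkm by more than their spread, while Pkm, Eno1 and Ldha followed each other closely. In BM the order began with Pkm at 1804 ± 108, Aldoa at 1433 ± 63.8 and Eno1 at 1286 ± 51.4, and Ldha followed at 435 ± 9.77 TPM. Single genes of the steps that commit glucose to the pathway were lower than Aldoa, Pkm, Eno1 and Ldha in every group. In WT, Hk2 had 62.7 ± 5.32 and Pfkl 94.3 ± 7.71 TPM. Summed over isoenzymes, hexokinase had 209 to 225 TPM in BM, above Tpi1 at 129 to 141. The phosphofructokinase sum in BM, 125 to 135 TPM, overlapped Tpi1. In WT the hexokinase sum was 143 to 175 and the phosphofructokinase sum 162 to 182 TPM, both below Tpi1 at 335 to 357. Together the 33 genes took 0.878 to 0.954% of all counts in BM, 1.38 to 1.46% in WT, 1.48 to 1.58% in Mixed and 1.38 to 1.40% in KO. In bulk RNA, fewer cells of a type and less RNA per cell cannot be told apart.

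**Figure D1:**
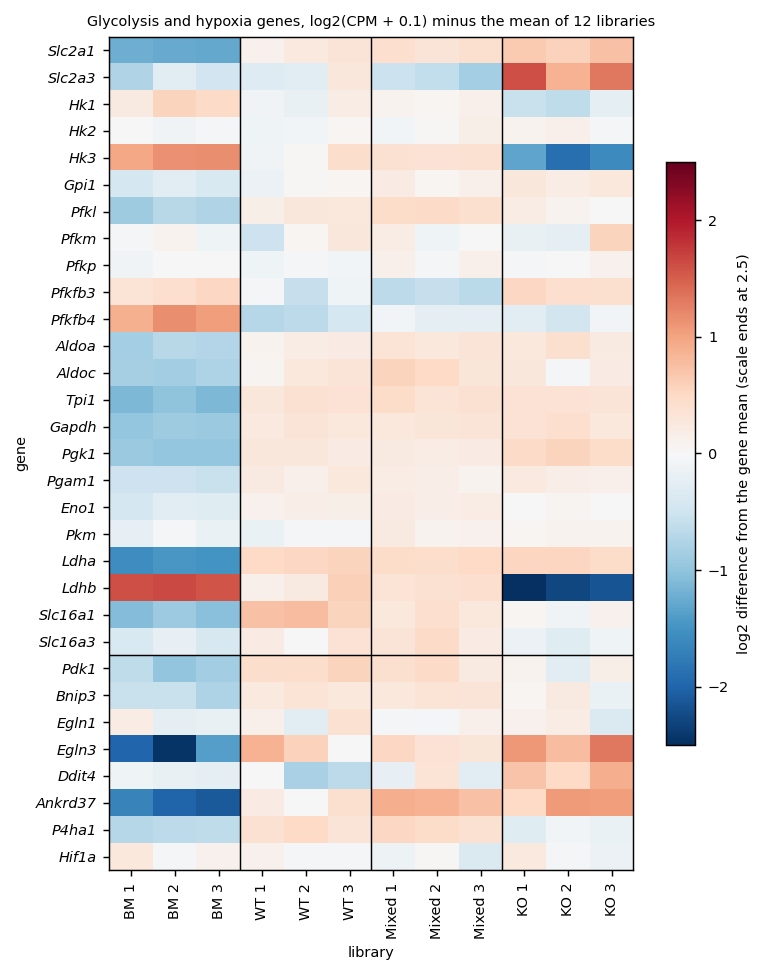
Each row is a gene among the 31 tested and each column a library; colour is log2(CPM + 0.1) minus that gene's mean over the 12 libraries, blue below and red above, and the horizontal line separates glycolysis and transport from hypoxia targets. Most rows are blue in the 3 BM libraries, where 17 of 31 genes lay below every fetal liver library, while Ldhb, Hk3 and Pfkfb4 are red there and Ldhb and Hk3 are deepest blue in KO.

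The comparison of BM with fetal liver asks how the pathway is expressed in monocytes of bone marrow and of fetal liver. In BM most of the chain from aldolase to lactate dehydrogenase A was lower than in fetal liver WT, together with the glucose transporter Slc2a1, the lactate transporters and the hypoxia targets Egln3, Ankrd37, Pdk1, P4ha1 and Bnip3. Against this, 5 genes were higher in BM: Hk1, Hk3, Ldhb, Pfkfb3 and Pfkfb4. Of the 31 tested genes, 18 were lower and 5 higher in BM than in WT at an adjusted p under 0.05 (edgeR's quasi-likelihood test, Benjamini-Hochberg over 14618 genes), where 31.9% of all tested genes were lower, 32.1% higher and 64% called in either direction. The 18 lower genes are a larger share of the 31 than the background, and the 5 higher a smaller one. The median log2 difference was -0.52 over these genes and 0.00 over all genes. The 31 genes were also more highly expressed than most, with a median average level of 6.11 log2 CPM against 3.90 for all tested genes, and the part of the level in these counts was not tested. The same BM libraries stood below Mixed in 19 genes and above it in 6, with 28.9% and 29.5% of all genes, or 58.4% in either direction, as background, and below KO in 20 and above it in 4, with 32% and 31.8%, or 63.8% in either direction, as background. The libraries did not overlap for 23 of 31 genes between BM and WT, against 68.1% of all genes, for 24 between BM and Mixed, against 64.2%, and for 24 between BM and KO, against 67.7%. These 3 comparisons share the BM libraries. All 3 BM libraries lay below all 9 fetal liver libraries for 17 of the 31 genes, as they did for 23% of all genes, and above them for 4 of 31 (Hk1, Hk3, Ldhb and Pfkfb4), against 23.9%. Age, tissue and the lack of erythroid transcripts in BM cannot be told apart here.

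On TMM-scaled counts the pathway was not lower as a whole in KO, but in summed TPM it was. Summed over all the glycolysis and hypoxia response genes, TPM was 9630 to 9749 in KO, below every WT and Mixed library. The sum was 10252.8 to 10720.5 in WT and 10841.5 to 11497 in Mixed. On the scaled counts, single isoenzymes and transporters changed, in both directions. The largest falls against WT were in Ldhb, 6.31-fold, and Hk3, 3.31-fold, and the largest rise was in the neuronal-type glucose transporter Slc2a3, 2.59-fold. Of the 31 genes, 10 were higher and 8 lower, where 18.2% and 19.9% of all tested genes were (38.1% in either direction), and the median log2 difference was 0.02. A log2 difference of more than 1 was reached by 4 of these genes: Ldhb, Hk3, Slc2a3 and Ddit4, the last at 1.47 to 1.99 CPM in KO. Against a threshold of 1.5-fold only Slc2a3, Hk3 and Ldhb kept their call. Against Mixed, 5 genes were higher and 10 lower, with 18.2% and 18.5%, or 36.7% in either direction, as background. KO and WT libraries did not overlap for 18 of 31 genes, against 47.4% of all genes, and KO and Mixed libraries for 17, against 48.3%. All 3 KO libraries lay below all 6 WT and Mixed libraries for 9 genes (Ldhb, Hk3, Hk1, Pdk1, P4ha1, Slc16a1, Slc16a3, Eno1 and Bnip3), against 17.2% of all genes, and above them for 5 (Slc2a1, Slc2a3, Pfkfb3, Pgk1 and Ddit4), against 16.9%. KO was sampled at E13.5 and only WT 1 shares that day. With the day as a term, which rests on the 3 WT libraries alone, 8 were higher and 6 lower than in WT, and Hk1, Bnip3, Ddit4 and Ankrd37 lost their call with adjusted p = 0.13, 0.249, 0.278 and 0.0563. Against Mixed, the count lower fell from 10 to 4 with that term, and Pgk1, higher before, lost its call (adjusted p = 0.0609). The share of all genes called with that term was not counted. Aldoa and Pkm, each higher by a log2 difference of 0.14 in KO, passed only narrowly with adjusted p = 0.0437 and 0.0409. They lost the call with upper-quartile scaling and without each of WT 1, WT 2, KO 1 and KO 2, and Pkm also without KO 3. In TPM both means were lower in KO than in WT, Aldoa 2526 against 2564 and Pkm 1759 against 1801, with overlapping libraries. Pfkfb4 lost its call without KO 3 or without WT 1, and Bnip3 without KO 3 or without WT 2. Against Mixed, Pdk1 lost its call without KO 2 and Bnip3 without KO 3.

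Mixed differed little from WT. Pfkl, Pkm, Pfkfb4 and Ankrd37 were higher and Slc16a1 and Pfkfb3 lower, which is 4 and 2 of 31, where 4.21% and 3.87% of all genes were called (8.07% in either direction), and the largest of these differences was 1.56-fold, in Ankrd37. Mixed and WT libraries did not overlap for 10 of 31 genes, against 27% of all genes. With embryonic day as a term, or without Mixed 1 or WT 1, which is the WT library of E13.5, none of the 31 was higher and none lower. Without Mixed 2 or Mixed 3, 2 were higher. Without WT 2, 1 was higher and 1 lower, without WT 3, 5 were higher and 1 lower, and without Mixed 3 none was lower. The share of all genes called in these fits was not counted. Group and embryonic day overlap here.

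**Figure D2:**
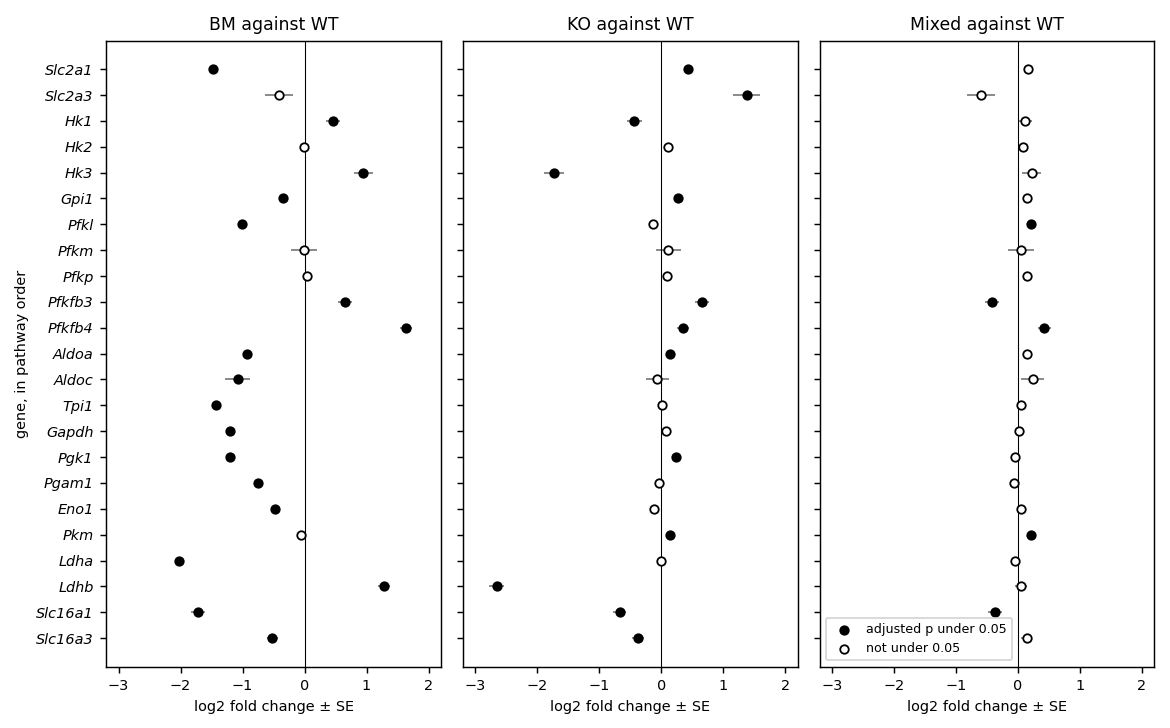
Log2 fold change (x axis, with its SE as a bar) of the 23 tested genes of glycolysis and transport in pathway order from glucose uptake (top) to lactate export (bottom), in BM, KO and Mixed each against WT; filled points have an adjusted p under 0.05. In BM the points from Aldoa to Ldha lie left of 0, Pkm least so at -0.06, in KO Ldhb at -2.66 and Hk3 at -1.73 stand apart from the rest, and in Mixed the point farthest from 0 is Slc2a3 at -0.59.

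Glucose enters through the Slc2a family. Slc2a1, the common transporter of growing cells, had 34.1, 32.9 and 32.7 CPM in BM, 85.02, 93.2 and 98.4 in WT, 99.4 to 105 in Mixed and 125, 118 and 131 in KO. No BM library came near a fetal liver library, and in CPM no KO library overlapped WT or Mixed. In TPM, KO, at 48.6 to 56.6, overlapped Mixed, at 48.7 to 52.8, and lay above WT, at 42.6 to 46.5. Slc2a1 was 2.77-fold lower in BM than in WT (log2 -1.47, SE 0.0673, adjusted p = 2.87e-14) and 1.35-fold higher in KO (log2 0.43, SE 0.0631, adjusted p = 9.57e-06). Slc2a3, a transporter of high affinity known from neurons and leukocytes, had 59.4, 35.5 and 48.1 CPM in KO, 15.51, 15.9 and 23.7 in WT, 13.3, 12.6 and 10.7 in Mixed and 11.5, 16.2 and 13.8 in BM. KO was above every other library but varied more among its own than the other groups. The rise in KO was 2.59-fold against WT (log2 1.38, SE 0.211, adjusted p = 0.000329) and 3.91-fold against Mixed (log2 1.97, SE 0.218, adjusted p = 2.65e-05). BM against WT did not pass the test (log2 -0.41, SE 0.223, adjusted p = 0.133), although it did with no filter on low counts and in a fit of these 2 groups alone. Mixed against WT, at a log2 of -0.59 (adjusted p = 0.146), passed in the same alternatives and with DESeq2. Per length, Slc2a3 made up 22.1 ± 3.64% of the TPM of the pair in KO (SD, n = 3), 13.4 ± 2.13% in WT, 8.11 ± 0.429% in Mixed and 26.3 ± 1.57% in BM. The shares of BM and KO overlapped, with Slc2a1 low in BM and Slc2a3 high in KO. The highest neutrophil marker sums were also those of KO, and their part in the Slc2a3 difference was not tested.

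Hexokinase traps glucose in the cell by adding a phosphate. Hk2, the isoenzyme induced by insulin and HIF, was the steadiest of the 3, at 138 to 165 CPM over all 12 libraries, a ratio of 1.19 between the highest and lowest. It passed the test in none of the 6 comparisons, with a log2 difference of -0.01 (SE 0.0629) between BM and WT and 0.11 (SE 0.0627) between KO and WT. Between BM and KO, at a log2 of -0.12, it passed in 4 of 15 alternatives. Hk3, the isoenzyme of myeloid cells, had 230, 260 and 265 CPM in BM, 111, 120 and 160 in WT, 154, 151 and 153 in Mixed and 47.2, 31.9 and 39.1 in KO. BM lay above and KO below every library of the other groups, while WT 3 lay above every Mixed library. Hk3 fell 3.31-fold in KO against WT (log2 -1.73, SE 0.161, adjusted p = 1.37e-05) and 3.86-fold against Mixed (log2 -1.95, SE 0.161, adjusted p = 5.59e-06), and was 1.93-fold higher in BM than in WT (log2 0.95, SE 0.151, adjusted p = 0.000301). Hk1, the constitutive form bound to mitochondria, moved the same ways by less, with 120, 151 and 144 CPM in BM, 96.3, 90.2 and 117 in WT, 107 to 112 in Mixed and 69.8, 66.6 and 87.4 in KO. Against WT the log2 difference was 0.46 in BM (SE 0.117, adjusted p = 0.00394) and -0.44 in KO (SE 0.118, adjusted p = 0.0105). Its call between BM and Mixed (log2 0.34, adjusted p = 0.0226) was lost without BM 2, BM 3, Mixed 1 or Mixed 2. Per length, Hk3 supplied 53.4 ± 0.885% of the hexokinase TPM in BM, 36.8 ± 1.86% in WT, 40.7 ± 2.68% in Mixed and 16.8 ± 2.87% in KO. Hk2 was the largest share in KO, at 59.3 ± 6.02%, and Hk1 stayed between 20.97 and 29.1% in all libraries.

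**Figure D3:**
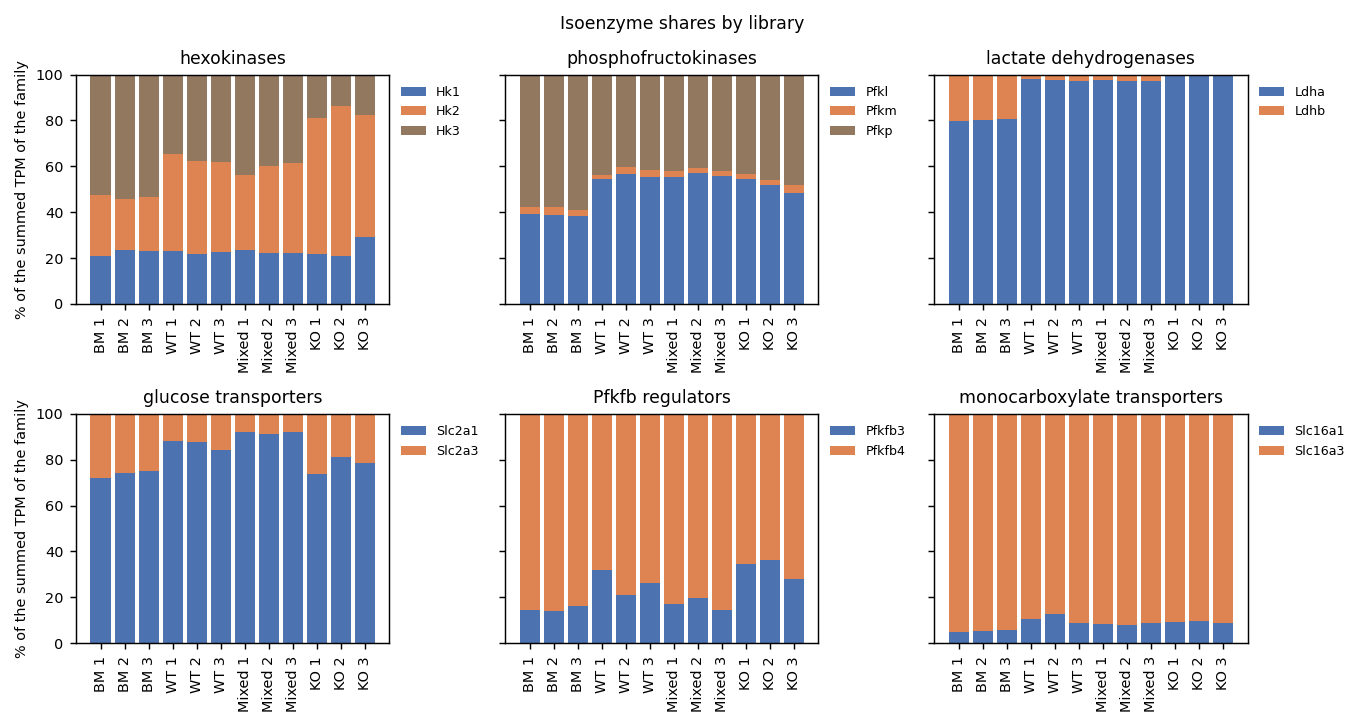
Stacked bars give, for each of the 12 libraries, the percent of the summed TPM of a family held by each of its isoenzymes. Hk3 takes about the upper 53.4% in BM and 16.8% in KO, Ldhb 19.8% in BM and 0.384% in KO, and Pfkp 58.2% in BM and 42.0% in WT.

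Phosphofructokinase makes the committed step. Its liver-type gene Pfkl had 105, 120 and 116 CPM in BM, 215, 235 and 234 in WT, 255 to 269 in Mixed and 192 to 222 in KO. BM was separate from all others, at 2.00-fold below WT (SE of log2 0.063, adjusted p = 6.18e-12). KO against WT did not pass (log2 -0.14, SE 0.0618, adjusted p = 0.0814), although it did without KO 1 or without WT 1, and Pfkl was lower in KO than in Mixed by 1.28-fold (adjusted p = 9.99e-05, lost with embryonic day as a term). The platelet-type gene Pfkp had 157 to 184 CPM in the 12 libraries, a span of 1.17-fold, and passed the test in none of the 6 comparisons (BM against Mixed did in 3 of 15 alternatives), nor did the muscle-type gene Pfkm, at 5.91 to 12.6 CPM. Against WT, Pfkp differed in BM by a log2 of 0.03 (SE 0.0573). With Pfkl lower, Pfkp made up 58.2 ± 0.777% of the phosphofructokinase TPM in BM, 42.0 ± 1.68% in WT, 41.7 ± 0.694% in Mixed and 45.8 ± 2.45% in KO.

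The Pfkfb enzymes make and break the sugar bisphosphate that activates phosphofructokinase. Pfkfb4 had 94.5, 115 and 106 CPM in BM, 31.4, 32.4 and 37.8 in WT, 43.9 to 48.9 in Mixed and 37.2 to 49.1 in KO. It was 3.10-fold higher in BM than in WT (log2 1.63, SE 0.0986, adjusted p = 1.36e-11), opposite to the direction of Pfkl and of Slc2a1. Pfkfb3, the form with the strongest kinase activity, had 29.8, 31.4 and 33.8 CPM in BM and 33.5, 31.5 and 30.9 in KO, against 23.2, 15.8 and 21.8 in WT and 14.7 to 15.7 in Mixed. BM and KO thus overlapped, above both other groups. The difference from WT was 1.57-fold in BM (adjusted p = 2.64e-05) and 1.58-fold in KO (adjusted p = 5.21e-05), and BM against KO did not pass (log2 -0.01, SE 0.108).

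**Figure D4:**
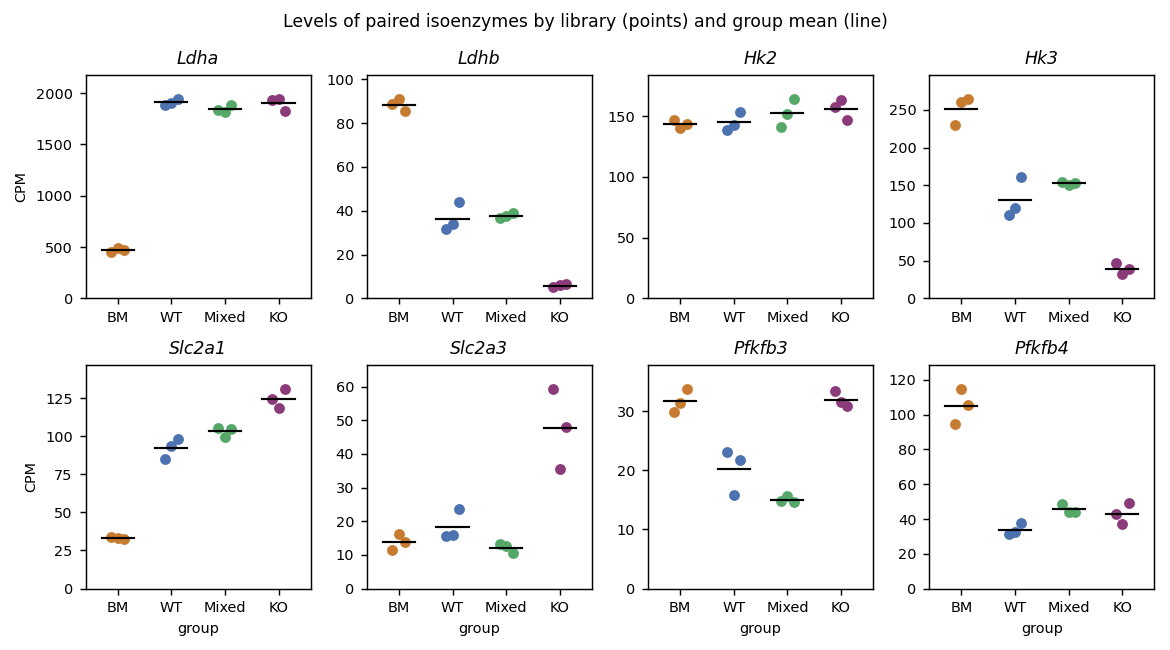
CPM of 4 pairs of isoenzymes or transporters, with a point for each of the 3 libraries of a group, a line at the group mean and each y axis starting at 0. Ldha is at 452 to 488 CPM in BM and at 1816 to 1948 in the 9 fetal liver libraries, Ldhb runs the other way from BM to KO, and Hk2 lies between 138 and 165 CPM in every group.

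The middle and lower steps of the pathway run from glucose phosphate isomerase to pyruvate kinase. Of the 9 tested genes of these steps, 8 were lower in BM than in WT, against 31.9% of all genes, and Pkm, pyruvate kinase, was not called, with 2834 to 3229 CPM in BM and 2938 to 3227 in WT (log2 -0.06, SE 0.0536, adjusted p = 0.335), although it was called without BM 2. The largest fall was in Tpi1, triosephosphate isomerase, with 143, 154 and 142 CPM in BM against 377 to 424 in the 9 fetal liver libraries, 2.68-fold below WT (log2 -1.42, SE 0.0521, adjusted p = 6.55e-16). Gapdh had 274, 288 and 283 CPM in BM and 638, 674 and 643 in WT, 2.31-fold lower (adjusted p = 5.28e-15). This gene is often used to scale other transcripts. Pgk1, phosphoglycerate kinase and a classical HIF target, had 233, 226 and 227 CPM in BM, 536, 538 and 507 in WT, 501 to 519 in Mixed and 614, 654 and 605 in KO. It was 2.30-fold lower in BM (adjusted p = 3.78e-15) and 1.18-fold higher in KO than in WT (log2 0.24, SE 0.0477, adjusted p = 0.000302), with no overlap of libraries in either. The aldolase genes Aldoa and Aldoc fell in BM by 1.89-fold and 2.11-fold, the second from only 3.63 to 4.37 CPM in WT. Smaller falls in BM were those of Pgam1, phosphoglycerate mutase, at 1.68-fold, Eno1, enolase, at 1.39-fold, and Gpi1, the isomerase, at 1.27-fold. In KO, Gpi1 was 1.204-fold higher than in WT, at 819 to 875 CPM against 650 to 742 (adjusted p = 0.001), and was among the 4 of the 9 genes that were higher there, against 18.2% of all genes, with Aldoa, Pgk1 and Pkm, while none was lower. Tpi1, Gapdh, Pgam1, Eno1 and Aldoc in KO did not pass, with log2 differences from -0.12 to 0.07. Eno1 was the closest (adjusted p = 0.0545) and passed as lower in 4 of 16 alternatives. These calls are on TMM-scaled counts. In TPM, Tpi1, Gapdh, Pgam1, Eno1 and Aldoc each lay below every WT library in KO, Eno1 at 1364 to 1399 against 1666 to 1732. Gpi1 overlapped in TPM, at 457 to 522 in KO and 443 to 480 in WT. Pgk1 stayed above WT, at 396 to 414 TPM against 358 to 395.

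Near-identical copies bear on several of these values, since reads may be divided between a gene and its pseudogenes. The copies of Gapdh, of which 179 are in the count table, held 40.2 to 45.2% of the counts of gene and copies together. They include Peli2 and Vmn2r60, each matched through a processed transcript and taken with all its counts. For Pgk1 the share was 29.5 to 33%, for Eno1 15.7 to 18.2%, for Pgam1 8.17 to 10.8%, for Bnip3 3.34 to 7.40%, and for the other members with copies at most 2.65%. For Bnip3 the share was higher in BM, at 5.74 to 7.40%, than in the other libraries, at 3.34 to 4.27%. With each gene and its copies summed, a step added after the data had been seen, 1 call changed, that of Eno1, which became lower in KO than in WT. Aldoa has a further entry of the same name in the table, at 0.11 to 0.95 CPM, and the main entry was used.

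Lactate dehydrogenase showed the widest contrast between isoenzymes. Ldha lies at chr7:46841475-46855627 on the plus strand and Ldhb at chr6:142490249-142507957 on the minus strand (GRCm38). Ldha, the subunit that favours making lactate, had 452, 488 and 470 CPM in BM, 1885, 1904 and 1948 in WT, 1836, 1816 and 1880 in Mixed and 1935, 1943 and 1827 in KO. It was 4.07-fold lower in BM than in WT (log2 -2.02, SE 0.0468, adjusted p = 4.03e-19), while KO against WT gave a log2 of -0.01 (SE 0.0449, adjusted p = 0.914). Ldhb, the subunit of heart that favours using lactate, had 88.7, 91.2 and 85.5 CPM in BM, 31.5, 33.7 and 43.8 in WT, 36.8, 37.7 and 38.8 in Mixed and 5.002, 5.89 and 6.38 in KO. These are 3 separate levels, with WT and Mixed together in the middle. Ldhb fell 6.31-fold in KO against WT (log2 -2.66, SE 0.118, adjusted p = 1.03e-13) and 6.55-fold against Mixed, and was 2.43-fold higher in BM than in WT (log2 1.28, SE 0.0971, adjusted p = 1.74e-10). BM was 15.3-fold above KO (log2 3.94, SE 0.117, adjusted p = 2.46e-17), the largest difference upwards in BM among the 31 genes. The fall in KO held with embryonic day as a term (log2 -2.43, adjusted p = 2.34e-09). Per length, Ldhb made up 19.8 ± 0.55% of the lactate dehydrogenase TPM in BM, 2.42 ± 0.399% in WT, 2.62 ± 0.11% in Mixed and 0.384 ± 0.0585% in KO. The ratio of Ldha to Ldhb TPM was 3.93 to 4.21 in BM, 34.0 to 47.1 in WT, 35.8 to 39.0 in Mixed and 228 to 310 in KO.

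The promoters of the members whose levels set this contrast are shown because the letters that HIF binds are known. HIF recognises a core of ACGTG or GCGTG. Windows of 300 bases, 250 before to 50 after each annotated start, were read from RefSeq (GRCm38.p6) for 32 of the 33 genes, with 46 starts in all. Slc2a3 was not matched. Each line below runs 5′ to 3′ on the strand of the gene, and capitals mark every match to either core on either strand, so that CACGT and CACGC are matches read from the other strand. The palindrome CACGTG, which is also the E-box of Myc, counts as 2 overlapping matches. The lines are Ldha at chr7:46845554-46845853, plus strand, Ldhb at chr6:142507908-142508207, minus strand, Pgk1 at chrX:106186850-106187149, plus strand, Hk3 at chr13:55021336-55021635, minus strand, and Ankrd37 at chr8:45999801-46000100, minus strand.
Ldha: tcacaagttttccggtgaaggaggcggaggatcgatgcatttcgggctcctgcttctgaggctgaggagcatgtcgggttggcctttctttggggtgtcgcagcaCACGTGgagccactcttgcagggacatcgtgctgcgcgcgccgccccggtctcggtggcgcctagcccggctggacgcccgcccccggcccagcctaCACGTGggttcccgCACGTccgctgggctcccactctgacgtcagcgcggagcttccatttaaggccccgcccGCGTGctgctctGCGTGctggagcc
Ldhb: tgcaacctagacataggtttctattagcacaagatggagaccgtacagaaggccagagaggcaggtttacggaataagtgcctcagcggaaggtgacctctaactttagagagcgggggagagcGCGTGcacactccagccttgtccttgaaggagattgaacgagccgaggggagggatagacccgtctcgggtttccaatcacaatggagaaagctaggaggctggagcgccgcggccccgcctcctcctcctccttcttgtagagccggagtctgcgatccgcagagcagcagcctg
Pgk1: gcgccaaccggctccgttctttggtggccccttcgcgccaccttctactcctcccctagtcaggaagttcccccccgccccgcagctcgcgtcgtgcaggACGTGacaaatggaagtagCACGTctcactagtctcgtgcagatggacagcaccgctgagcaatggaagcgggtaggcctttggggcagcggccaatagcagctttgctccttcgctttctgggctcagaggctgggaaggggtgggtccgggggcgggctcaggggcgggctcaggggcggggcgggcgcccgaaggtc
Hk3: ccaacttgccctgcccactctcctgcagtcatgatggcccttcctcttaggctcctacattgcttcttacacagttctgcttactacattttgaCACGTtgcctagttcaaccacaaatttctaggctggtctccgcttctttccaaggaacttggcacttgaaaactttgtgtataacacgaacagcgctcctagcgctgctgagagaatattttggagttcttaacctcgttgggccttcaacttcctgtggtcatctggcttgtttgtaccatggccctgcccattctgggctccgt
Ankrd37: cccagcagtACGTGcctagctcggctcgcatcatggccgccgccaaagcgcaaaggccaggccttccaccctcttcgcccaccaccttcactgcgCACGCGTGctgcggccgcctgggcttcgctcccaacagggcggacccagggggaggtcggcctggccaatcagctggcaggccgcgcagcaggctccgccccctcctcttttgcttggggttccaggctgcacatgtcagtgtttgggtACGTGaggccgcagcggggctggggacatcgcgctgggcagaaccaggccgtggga
Ldha, low in BM and level in CPM among the fetal groups, has 7 matches in this window, 5 of ACGTG and 2 of GCGTG. Ldhb, which changed the other way in BM, has 1, a GCGTG. Pgk1 has 2, Ankrd37 has 4 and Hk3 has 1. No relation between the number of matches and the direction in BM was tested, and members with many or few matches are found on both sides: Hk1 and Pfkfb3, both higher in BM, have 5 and 4 at their second annotated start, while Pfkl and Egln3, both lower, have 1 each. Over all members, 37 of the 46 windows (80.4%) hold at least 1 match, against 43.8% of all 32851 promoter windows of the same length, and 29 of the 32 genes have a window with a match. Gpi1 and Tpi1, both lower in BM, and Eno2, which was not tested, have none in these windows. The member windows are also richer in G and C, with a median of 62.2% against 52.7%. A match describes letters only, and which start the cells use was not measured.

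Lactate leaves through the monocarboxylate transporters. Slc16a3, the export form known as a HIF target, had 50.7, 57.3 and 50.3 CPM in BM, 76.7, 65.9 and 84.6 in WT, 76.1 to 92.3 in Mixed and 59.5, 53.6 and 61.7 in KO. Slc16a1, the widely expressed form, had 5.99 to 6.80 CPM in BM, 21.5, 22.1 and 18.9 in WT, 15.46 to 17.3 in Mixed and 12.04 to 13.8 in KO. Both transporters were thus low in BM and in KO. Slc16a1 was 3.29-fold lower in BM than in WT (log2 -1.72, SE 0.118, adjusted p = 2.96e-11) and 1.59-fold lower in KO (log2 -0.67, SE 0.11, adjusted p = 4.25e-05). Slc16a3 was 1.43-fold lower in BM (adjusted p = 4.63e-05) and 1.30-fold lower in KO (adjusted p = 0.00236). The call of Slc16a1 between KO and Mixed (log2 -0.30, adjusted p = 0.0373) was lost in 12 of 16 alternatives, among them DESeq2 and leaving out any library of these groups but KO 3.

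Among the members, hypoxia targets outside glycolysis were mostly lower in BM and went both ways in KO. Of the 7 tested, 5 were lower in BM than in WT and none higher, against 31.9% and 32.1% of all genes, and in KO 3 were lower and 2 higher, against 19.9% and 18.2%. Pdk1, which limits the use of pyruvate in mitochondria by phosphorylating pyruvate dehydrogenase, had 17.8, 13.9 and 15.1 CPM in BM, 38.0, 37.6 and 41.1 in WT, 32.7 to 39.0 in Mixed and 29.8, 23.1 and 30.6 in KO. P4ha1, a collagen prolyl hydroxylase subunit, had 22.1 to 23.6 CPM in BM, 45.9 to 52.0 in WT, 47.4 to 52.1 in Mixed and 29.5, 35.0 and 32.4 in KO. For both genes BM was lowest in CPM, KO intermediate and the other groups highest, with no overlap between these 3 levels. In TPM this held for P4ha1. Pdk1 in KO, at 7.22 to 12.6 TPM, overlapped both BM, at 4.95 to 7.29, and Mixed, at 12.1 to 17.3. Against WT, Pdk1 was 2.496-fold lower in BM (adjusted p = 9.72e-10) and 1.40-fold lower in KO (adjusted p = 0.00105), and P4ha1 2.10-fold lower in BM (adjusted p = 2.01e-10) and 1.5-fold lower in KO (adjusted p = 4.87e-06). Bnip3, a mitochondrial protein that starts mitophagy, had 39.2 to 45.4 CPM in BM, 79.4 to 85.1 in WT and 59.8 to 77.6 in KO, 1.89-fold lower in BM (adjusted p = 2.34e-09) and 1.19-fold lower in KO (adjusted p = 0.0188).

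Egln3 and Ankrd37 did not follow that order. Egln3, a prolyl hydroxylase that HIF itself induces, had 0.550, 0.373 and 0.893 CPM in BM, from 8 to 18 reads, against 4.63, 3.75 and 2.49 in WT, 3.08 to 3.57 in Mixed and 5.37, 4.31 and 6.30 in KO. It was 5.94-fold lower in BM than in WT (log2 -2.57, SE 0.315, adjusted p = 2.96e-07). KO against WT did not pass (log2 0.56, SE 0.249, adjusted p = 0.0805), although it did without WT 1, and the call above Mixed (adjusted p = 0.0312) was lost with embryonic day as a term and without KO 1, KO 3 or any Mixed library. Ankrd37, an ankyrin repeat protein and sensitive HIF target, had 1.37, 1.07 and 0.992 CPM in BM, 5.30, 4.56 and 6.06 in WT, 8.64, 8.47 and 7.70 in Mixed and 6.46, 9.72 and 9.59 in KO. It was 4.63-fold lower in BM than in WT (log2 -2.21, SE 0.223, adjusted p = 1.45e-08) and 1.62-fold higher in KO (log2 0.69, SE 0.18, adjusted p = 0.00391). Mixed and KO libraries overlapped, and all lay above WT. Ddit4, an inhibitor of mTORC1 induced by stress and hypoxia, was near the limit, at 1.73, 1.47 and 1.99 CPM in KO, 1.00, 0.536 and 0.611 in WT, 0.818 to 1.32 in Mixed and 0.843 to 0.934 in BM. Its 2.43-fold higher level in KO than in WT (log2 1.28, SE 0.368, adjusted p = 0.00829) rests on 28 to 47 reads per KO library, and its call between BM and KO was lost without BM 3 or without KO 3.

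The oxygen sensor and the factor itself differed little. Egln1, the main prolyl hydroxylase acting on HIF, had 7.69 to 13.1 CPM over the 12 libraries and passed the test in no comparison. Hif1a had 31.7 to 38.7 CPM in BM, 31.8 to 34.9 in WT, 25.3 to 33.1 in Mixed and 29.5 to 38.3 in KO. These ranges overlap, and the single call, higher in BM than in Mixed (log2 0.26, SE 0.108, adjusted p = 0.0473), was lost in 11 of 15 alternatives. HIF is controlled mainly at the level of the protein, which was not measured here. With Egln3 low, Egln1 made up 92.9 ± 3.27% of the TPM of the pair in BM, 71.0 ± 9.18% in WT and 60.8 ± 9.25% in KO. On the opposite strand, exons of Bnip3 overlap another gene over 22.3% of their bases and exons of Gpi1 over 11.5%. Exons of Ankrd37 overlap Lrp2bp over 22.7% and Ufsp2 over 3.7%. The kit does not mark strand, so reads there cannot be assigned to either gene. On the same strand, exons of Pkm overlap Gm49759 over 15.3% of their bases and exons of Pfkm overlap Gm26513 over 10.2%.

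**Figure D5:**
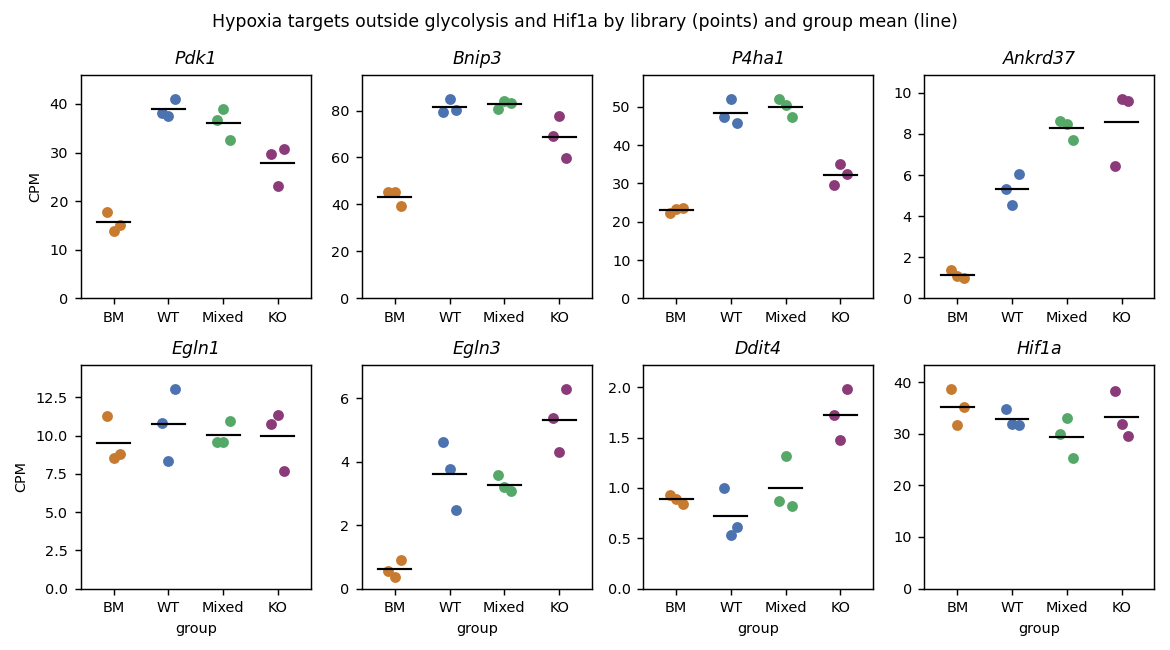
CPM of 7 hypoxia targets outside glycolysis and of Hif1a, with a point for each of the 3 libraries of a group, a line at the group mean and each y axis starting at 0. Pdk1, Bnip3, P4ha1, Ankrd37 and Egln3 are lowest in BM, Pdk1 and P4ha1 are intermediate in KO, and the Hif1a points of the 4 groups overlap between 25.3 and 38.7 CPM.

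The counts of called genes in the lists around the pathway are to be read against all tested genes, of which 64% were called in BM against WT (32.1% higher, 31.9% lower), 38.1% in KO (18.2% higher, 19.9% lower) and 8.07% in Mixed. Of 16 tested other glycolysis enzymes and transporters, 6 were higher and 8 lower in BM than in WT, 87.5% called, and 3 higher and 4 lower in KO, 43.8% called and so near the 38.1% of all genes. Slc16a7, another monocarboxylate transporter, was 2.80-fold lower in KO (adjusted p = 5.09e-07). Pklr, the pyruvate kinase of red cells and liver, fell from 4.34 ± 2.99 CPM in WT (SD, n = 3) to 0.0486 ± 0.0496 in BM (adjusted p = 0.000326), as the erythroid markers did.

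The pentose phosphate pathway, which branches off after hexokinase to make NADPH and ribose, had 4 of 8 genes higher and none lower in KO, against 18.2% and 19.9% of all genes, and 1 higher and 4 lower in BM, against 32.1% and 31.9%, both compared with WT. Taldo1, transaldolase, rose in KO from 811 ± 50.2 to 1487 ± 55 CPM (1.83-fold, adjusted p = 8.47e-12) and H6pd, the glucose dehydrogenase of the endoplasmic reticulum, by 1.71-fold (adjusted p = 6.44e-05). In BM, H6pd was 1.45-fold higher (adjusted p = 0.00132), and Rpia, which makes ribose phosphate, 4.44-fold lower (adjusted p = 1.2e-09). Of 15 tested genes of glycogen metabolism, 3 were higher and 7 lower in KO, 66.7% called against 38.1% of all genes, and 6 higher and 5 lower in BM, 73.3% against 64%. Gyg, glycogenin, the primer of glycogen, rose in KO from 465 ± 10.6 to 1281 ± 74.8 CPM (2.76-fold, adjusted p = 8.37e-16), and Phka1, a phosphorylase kinase subunit, fell 3.18-fold (adjusted p = 3.23e-05). In BM Pgm1, phosphoglucomutase, was 2.60-fold lower (adjusted p = 5.39e-14) and Phka1 2.44-fold higher (adjusted p = 3.52e-05). The rises in KO stood beside neutrophil marker sums of 11160 to 14060 CPM against 4560 to 6478 in WT, led by S100a8 and S100a9, and any relation between them was not tested.

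At the entry of pyruvate into mitochondria, 5 of 13 tested genes were higher and 5 lower in BM than in WT, 76.9% called against 64% of all genes, and 2 were higher and 4 lower in KO, 46.2% against 38.1%. The pyruvate dehydrogenase kinases did not change together. While Pdk1 was lower in BM, Pdk2 rose from 1.14 ± 0.0767 CPM in WT to 11.5 ± 0.565 in BM (10.1-fold, adjusted p = 2.29e-10). While Pdk1 was lower in KO, Pdk3 rose from 33.2 ± 1.93 to 62.2 ± 7.25 CPM (1.87-fold, adjusted p = 9.49e-07). Pdp1, a phosphatase that reverses these kinases, was 2.05-fold higher in BM (adjusted p = 4.67e-05), and Dlat, a subunit of the complex, 1.32-fold lower in KO (adjusted p = 0.00139).

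Among 12 tested regulators of the HIF pathway, 5 were higher and 2 lower in BM than in WT, and 3 higher and 2 lower in KO. These are 58.3% and 41.7% called, near the 64% and 38.1% of all genes. Vhl, which marks hydroxylated HIF for destruction, was higher in both, by 2.13-fold in BM (adjusted p = 1.59e-06) and 1.85-fold in KO (adjusted p = 4.84e-05), and Siah2, a ligase that degrades prolyl hydroxylases, was 1.85-fold higher in BM (adjusted p = 0.000911) and 1.75-fold lower in KO (adjusted p = 0.00722). Of 28 tested other hypoxia response genes, 9 were higher and 12 lower in BM, 7 higher and 10 lower in KO, and 2 higher and 5 lower in Mixed. These are 75%, 60.7% and 25% called, against 64%, 38.1% and 8.07% of all genes. Cox4i2, a cytochrome oxidase subunit used in low oxygen, fell from 11.5 ± 1.30 CPM in WT to 0.269 ± 0.0328 in BM (adjusted p = 6.15e-15). Angptl4, an inhibitor of lipoprotein lipase, was 8.99-fold lower in BM (adjusted p = 3.82e-11) and 2.34-fold lower in KO (adjusted p = 1.73e-05), and Plod1, a lysyl hydroxylase, was 2.02-fold lower in KO (adjusted p = 7.62e-07). In Mixed, Ndrg1, a stress response gene, was 1.57-fold higher (adjusted p = 0.000924) and Hmox1, heme oxygenase, 1.32-fold lower (adjusted p = 0.0435). Ndrg1 stood far higher in BM, at 79.7 to 88.0 CPM against 8.65 to 12.4 in WT, opposite to Cox4i2 and Angptl4. Of 20 tested mTORC1 and Myc regulators, 8 were higher and 4 lower in BM, 5 higher and 6 lower in KO, and 1, Txnip, was higher in Mixed. These are 60%, 55% and 5% called, against 64%, 38.1% and 8.07% of all genes. Myc, an activator of glycolytic genes, was 3.29-fold lower in BM (adjusted p = 3.43e-13), beside the lower proliferation markers there. Deptor, an inhibitor of mTOR, was 3.15-fold higher in BM (adjusted p = 2.56e-12) and 4.12-fold lower in KO (adjusted p = 6.87e-12), and Sesn3, a sestrin, was 1.96-fold higher in KO (adjusted p = 0.00986).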

How the data were processed

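Bulk RNA-seq of 12 libraries was analysed. Per the labels' protocols, RNA was prepared with the NucleoSpin RNA XS and SMARTer Ultra Low kits, and was sequenced on a NovaSeq X Plus. Estimated counts per gene and TPM values were deposited by the authors. The tools named in the submitters' processing notes are STAR, Salmon, featureCounts, Subread and DRAGEN, with build mm10 and no stated order. Among deposited counts above 0, a share of 28.5% had a fractional part (tolerance 1e-06). The table held 55774 entries, of which 287 repeated a gene with identical values.

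Counts were rounded and filtered with filterByExpr (minimum count 10, minimum total 15), which kept 14618 genes. Scaling was by TMM. A fit of all 12 libraries with a mean per group was tested with edgeR's quasi-likelihood test (edgeR 4.0.16, R 4.3.3, limma 3.58.1, DESeq2 1.42.0), two-sided, with Benjamini-Hochberg adjustment over these genes and a threshold of 0.05. CPM are on TMM-scaled sizes. The common biological coefficient of variation was 0.0917. Floors of 3 counts cover counting error only. Isoenzyme shares use TPM, which is per length. The fit was tested on simulated data with 200 changed genes. Pseudogene copies were found with blastn 2.17.0 among GENCODE transcripts of GRCm38 (at least 90% identity over 200 bases).

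The members and lists were chosen with earlier results of these data known. Of each further list, up to 2 called genes are named per comparison with WT, those that changed most among genes averaging 1 log2 CPM or more. A gene that this rule names is not reported here. Alternatives were 2 other scalings, 2 other filters, DESeq2, the 2 groups alone, a replicate block, embryonic day as a covariate, a test against 1.5-fold and leaving out each library.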

Additional observations from a re-analysis of the deposited data

How the results depend on the processing

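Counts of members called higher or lower kept within 1.5 times of their main value under other scalings, other filters, DESeq2, a fit of the 2 groups alone and summed copies. A test against a 1.5-fold change left, for KO against WT, 1 higher and 2 lower. For Mixed against WT it left 0 and 0, for KO against Mixed 2 and 2, and for BM 3 higher both against WT and against Mixed. With embryonic day as a covariate, Mixed against WT gave 0 and 0, and KO against Mixed 4 lower. Leaving out each library in turn gave ranges, higher and lower, of 8 to 10 and 7 to 9 for KO against WT, 0 to 5 and 0 to 2 for Mixed against WT, and 5 and 18 to 19 for BM against WT. They were 4 to 5 and 8 to 9 for KO against Mixed, 4 to 5 and 19 to 20 for BM against Mixed, and 4 and 19 to 21 for BM against KO. The cause of these changes was not tested, beyond the higher threshold and the fewer samples, and the share of all genes called was not counted in the alternatives. No gene changed direction among called values in any of these alternatives. Replicate numbers did not pair the libraries, with correlations of deviations from -0.0353 to 0.0693. With a replicate block, KO against WT had 10 higher and 9 lower, KO against Mixed 5 and 9, and 184 of 186 gene results kept their side of the threshold. Taken from CPM instead of TPM, the Ldhb share was 15.8% in BM, 1.86% in WT, 2.01% in Mixed and 0.303% in KO. Genes under about 2 CPM, here Ddit4, Egln3 in BM, Eno2 and Vegfa, are limited by depth.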

Other observations

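Some neighbours of the listed genes were picked out after their values had been seen. Slc2a6, a lysosomal hexose transporter of macrophages, had 125 to 152 CPM in BM and 3.73 to 11.2 in the 9 fetal liver libraries (BM against WT 18.8-fold, edgeR adjusted p = 4.78e-13), so that among glucose transporters of the Slc2a family it was high where Slc2a1 was low. Bnip3l, the close relative of Bnip3, was 1.54-fold higher in BM than in WT (adjusted p = 4.2e-09) where Bnip3 was 1.89-fold lower. Mif, a cytokine and hypoxia target, had 37.5 to 43.9 CPM in BM and 233 to 302 in the fetal liver libraries (7.06-fold, adjusted p = 4.03e-19), and Fam162a, a mitochondrial hypoxia target, was 4.51-fold lower in BM (adjusted p = 2.29e-15). Tigar, a phosphatase that slows glycolysis, was 2.14-fold lower in BM (adjusted p = 7.32e-08) and 1.87-fold lower in KO (adjusted p = 3.08e-06) than in WT.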
